A study of Mus musculus with 2 samples.

Results

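The genes described are the ligands and receptors of the tumour necrosis factor (TNF) superfamily in mouse liver cells. Members were the symbols built from Tnfsf or Tnfrsf and a number, together with Tnf, Lta, Ltb, Ltbr, Fas, Cd40, Cd40lg, Cd27 and Cd70. This gave 40 genes, 16 ligands and 24 receptors, of 28200 genes listed in either library. All 40 were listed in both.

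TNF superfamily ligands are mostly trimeric proteins made at the cell surface, and some are cut loose by proteases such as ADAM17. Receptors with a death domain can recruit caspase-8 through adaptors such as FADD, whereas the others bind TRAF proteins that lead to NF-kB. Decoy receptors bind a ligand without a full signal. In the liver the family is known for hepatocyte death through FAS and TNF receptor 1, for killing by natural killer cells through TRAIL (Tnfsf10), and for the survival of B cells through BAFF (Tnfsf13b).

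Cells came from the livers of a male mouse and its control littermate after partial ligation of the inferior vena cava, which impedes the outflow of blood and models hepatic congestion. The library labelled control has the genotype Ctgffl/fl, and the library labelled knockout has Cdh5-CreERT2; Ctgffl/fl. Both thus carry floxed alleles of Ctgf (current symbol Ccn2), a matricellular protein, and the second adds a tamoxifen-inducible Cre driven by the Cdh5 promoter of endothelial cells. The sample titles assign the genotypes the other way round, whereas the library names go with the genotype labels. For age, tamoxifen dosing and the time since ligation, the sources used here give nothing. With 1 library per label there was no replicate and no test between labels, and each difference described is one between 2 libraries. Hepatocytes, dead cells and erythrocytes had been depleted before capture.

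The libraries held 106208933 and 129802501 counts over 10000 barcodes each, of which 7573 and 8358 cells were kept, and they shared 2 barcodes. Clusters of cells were named from marker genes, and class names below stand for cells that resemble a type by those markers. The 35 clusters gave 16 classes, 14 of which had enough cells in both libraries to compare, while 26.2% and 18.2% of cells were left unnamed. Their clusters had low marker scores, markers of another lineage or leading genes of another class. Cluster 2 (Gpnmb, Trem2, with 531 and 68 cells) and cluster 27 (Trac, Cd3e, with 139 and 110 cells) were among them. The main macrophage and T-cell values and the ranking of classes leave these cells out. Levels are CPM, a gene's counts scaled to a fixed total of the class, and a lower level cannot be told apart from fewer expressing cells. Intervals are exact 95% Poisson intervals that cover counting error only, and whether counts are collapsed molecules is not given in the sources used here. Ccn2 went with the genotype labels, at 1091 CPM in endothelial cells under the control label and 5.16 CPM under the knockout label. Endothelial cells numbered 1772 and 3483, but different clusters held most of them. Cluster 0 (Esm1, Lyve1) held 66.5% of them under the control label and 6.72% under the knockout label. Clusters 19 and 28 had the opposite shares, with 0.903% and 5.02% of the control cells and 40% and 36.7% of the knockout cells.

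A member was taken as measured in a class where its counts in the libraries summed to 20 or more and its level reached 10 CPM in one of them. Together they made up 0.0801% and 0.0860% of all counts. For 26 members the class with the highest CPM could be ranked in both libraries over 14 classes, and it was the same in 18 of them. Migratory dendritic cells (27 and 9) and cholangiocytes (5 and 41) were too few to be ranked. The leading class was the same for 3 of 7 ranked ligands and 15 of 19 ranked receptors, and the difference between these counts was not tested. Of the 8 members whose leading class differed, Cd27, Ltb, Ltbr, Tnfrsf26 and Tnfsf14 had first and second classes that were not apart beyond counting error in at least 1 library. Tnfrsf11b, Tnfsf8 and Tnfsf10 had them apart in both.

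Among ligands, Cd40lg, the T-cell signal that licenses B cells and antigen-presenting cells, was led by T cells at 42.6 and 81.8 CPM in the libraries labelled control and knockout. No other compared class passed 1.5 CPM in either library. Tnfsf12 (TWEAK), which acts on tissue repair, was led by stellate cells at 147 and 179.5 CPM. Smooth muscle or fibroblast-like cells (133 and 116 CPM) came next under the control label and endothelial cells (103 and 173 CPM) under the knockout label, in each case with an interval that overlapped that of stellate cells. Ltb, the partner of lymphotoxin alpha in the surface heterotrimer, was measured in lymphocytes and neutrophils only. T cells had 84.4 and 131 CPM, B cells 99.7 and 124, and NK cells or ILC1 57.2 and 82.1.

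Tnfsf10 (TRAIL) was measured in 8 classes. NK cells or ILC1 held 218 and 175 CPM, and endothelial cells held 111 and 233. T cells followed at 80.4 and 67.5 CPM, and Kupffer cells, the resident macrophages, were at 11.9 and 11.8 CPM. The leading class thus changed from NK cells or ILC1 to endothelial cells. Tnfsf8 (CD30 ligand) changed from T cells (112 and 77.0 CPM) to NK cells or ILC1 (78.1 and 109). Tnfsf14 (LIGHT), a ligand of the lymphotoxin beta receptor and HVEM, lay in the same 2 classes, at 28.4 and 41.1 CPM in T cells and 33.0 and 37.5 in NK cells or ILC1, with intervals that overlapped.

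Tnf was highest in neutrophils in both libraries, at 188 and 40.1 CPM, but 25 of the 34 Tnf counts in the library labelled control came from 1 of 34 neutrophils. Without the cell holding most counts in each library the levels were 50.8 and 38.6 CPM. Kupffer cells, monocytes, T cells and NK cells or ILC1 held between 10.4 and 24.8 CPM. Tnfsf13b (BAFF), which keeps B cells alive, was also highest in neutrophils, at 82.8 CPM (15 counts) and 141 CPM (242 counts), ahead of stellate cells at 16.5 and 28.2 CPM. The neutrophil cluster carried precursor genes beside mature ones, with Ngp at 36186 and 43072 CPM and Camp at 3978 and 6097.

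The remaining ligands were low. Tnfsf11 (RANKL), the osteoclast factor, was seen in T cells at 16.9 and 8.97 CPM, Tnfsf9 (4-1BB ligand) in conventional dendritic cells at 13.7 and 7.29, and Lta (lymphotoxin alpha) in B cells at 7.12 and 17.6. Tnfsf4 (OX40 ligand) held 12.2 and 1.76 CPM in B cells, from 12 and 2 counts. Tnfsf13 (APRIL), Tnfsf15 (TL1A) and Tnfsf18 (GITR ligand) stayed under 5 CPM in every compared class. Tnfsf13 lies beside Tnfsf12, with which it can share transcripts, and how such reads were assigned is not given in the sources used here. Cd70, the ligand of CD27, had 0 counts in every named class. In endothelial cells a floor of 3 counts, used here for a count of 0, corresponds to 0.230 and 0.105 CPM.

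**Figure D1:**
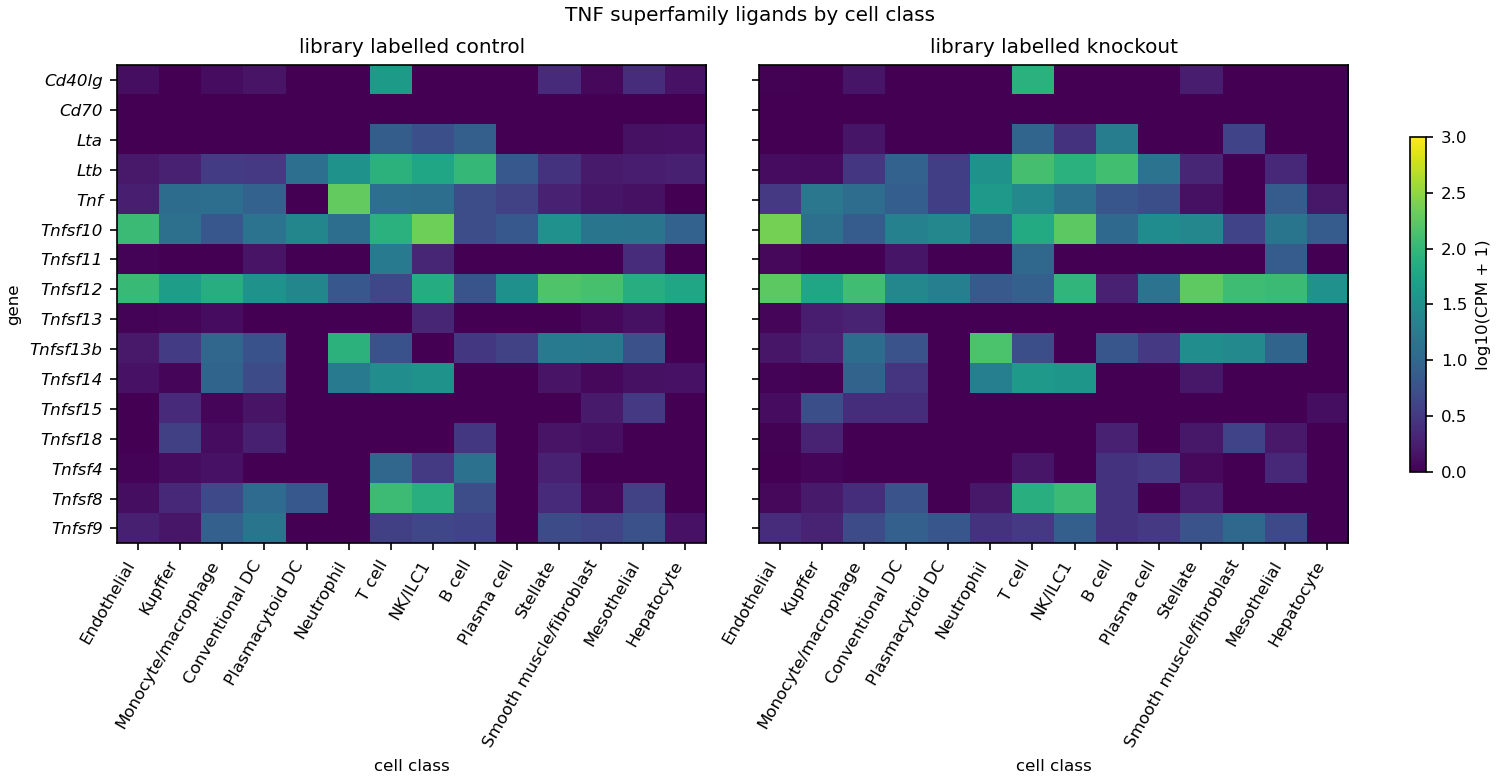
Level of the 16 ligands (rows) in 14 cell classes (columns) in the library labelled control (left) and knockout (right); the colour is log10(CPM + 1). Cd40lg is bright in T cells alone (42.6 and 81.8 CPM), Tnfsf10 in endothelial cells and NK cells or ILC1, and Tnfsf12 across vascular, mesenchymal and myeloid classes.

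Of the 5 death-domain receptors, Tnfrsf1a, Fas and Tnfrsf21 were measured in 12, 8 and 7 of 14 compared classes, and Tnfrsf10b and Tnfrsf25 in 1 each. Tnfrsf1a (TNF receptor 1) was led by endothelial cells at 202 CPM (95% counting interval 194 to 209.9) and 154 CPM (149 to 159). Stellate cells followed at 137 and 120.2 CPM. Fas, the receptor of FAS ligand, also led in endothelial cells, at 37.8 and 93.7 CPM. Under the control label the next class, neutrophils, lay at 33.1 CPM on 6 counts and its interval overlapped. Tnfrsf21 (death receptor 6) was led by stellate cells at 465 and 482 CPM. Smooth muscle or fibroblast-like cells held 204 and 168 CPM and monocytes or monocyte-derived macrophages 129 and 183. It was near 100 CPM or above in Kupffer cells but under 10 in endothelial cells.

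The mouse TRAIL death receptor, Tnfrsf10b, was low, with its highest level in mesothelial cells at 14.8 CPM (42 counts) and 7.70 CPM (13 counts). In endothelial cells it was at 7.50 and 3.40 CPM, under the measured minimum, on 98 and 97 counts. Tnfrsf25 (death receptor 3) was seen in T cells at 8.78 and 12.7 CPM.

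Among receptors that bind TRAF proteins, Tnfrsf1b and Ltbr were measured in 12 and 9 compared classes. Tnfrsf1b (TNF receptor 2) was led by monocytes or monocyte-derived macrophages at 339 and 360.2 CPM, ahead of Kupffer cells at 139 and 173. It was at 7.05 and 3.65 CPM in endothelial cells, the class that led for Tnfrsf1a. Tnfrsf11a (RANK), the receptor of RANKL, was led by Kupffer cells at 116 and 91.3 CPM among compared classes. Migratory dendritic cells, too few to be ranked, were also read with cells thinned to 4197 counts. Of 24 and 7 such cells, 54.2% and 71.4% held Tnfrsf11a, beside 36.2% and 28.8% of Kupffer cells. For Tnfrsf1b the shares were 87.5% and 71.4%, beside 67.5% and 67.4% of monocytes or monocyte-derived macrophages. Intervals of these shares overlapped in both libraries. Ltbr, the lymphotoxin beta receptor, was near 100 CPM in both stellate cells (101 and 96.4) and endothelial cells (96.7 and 99.7), 2 classes whose intervals overlapped.

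The B-lineage receptors had the same leading class in both libraries. Tnfrsf13c (BAFF receptor) was led by B cells at 140.4 and 220.2 CPM, and Tnfrsf17 (BCMA), which sustains plasma cells, by plasma cells at 75.9 and 125 CPM with no other class above 1.1 CPM. Tnfrsf13b (TACI), a receptor of BAFF and APRIL, led in plasmacytoid dendritic cells at 222 and 227 CPM, with B cells at 183 and 162 and plasma cells at 166 and 209.5. The intervals of the first classes overlapped. Cd40, the receptor of CD40 ligand, was led by B cells at 51.9 and 89.0 CPM among compared classes. Migratory dendritic cells, with only 27 and 9 cells and so outside the comparison, were at 153 and 134 CPM.

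Among compared classes, costimulatory receptors of lymphocytes were led by T cells or by NK cells or ILC1. Cd27, which binds CD70, was at 113 and 95 CPM in T cells and 80.3 and 114 in NK cells or ILC1. Tnfrsf18 (GITR) was at 104 and 76.0 CPM in T cells and 107 and 109 in NK cells or ILC1, and the interval of the ratio between these classes left out equality under the knockout label only. Tnfrsf9 (4-1BB) was led by NK cells or ILC1 at 207 and 178 CPM, while Tnfrsf4 (OX40) was led by T cells at 41.2 and 22.7 CPM. Tnfrsf12a, the receptor of TWEAK, was led by mesothelial cells at 39.2 and 34.4 CPM. Tnfrsf8 (CD30) reached 13.2 and 8.81 CPM in B cells, and Tnfrsf14 (HVEM) and Tnfrsf19 (TROY) were under 10 CPM in every compared class.

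Decoy receptors split between mesenchyme and endothelium. Tnfrsf11b (osteoprotegerin), a secreted decoy of RANKL and TRAIL, was at 712 and 825 CPM in stellate cells, 832 and 487 in smooth muscle or fibroblast-like cells and 53.7 and 111 in mesothelial cells. Of the other 11 compared classes none passed 20 CPM. The TRAIL decoys Tnfrsf22 and Tnfrsf23 were led by endothelial cells, at 27.2 and 29.7 CPM and at 38.7 and 24.9 CPM. Tnfrsf26, their neighbour, was highest in endothelial cells of the library labelled control (38.9 CPM) and in T cells of the other (59.1 CPM). These 3 genes are paralogs of similar sequence, so their counts are uncertain where reads could be split among them.

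**Figure D2:**
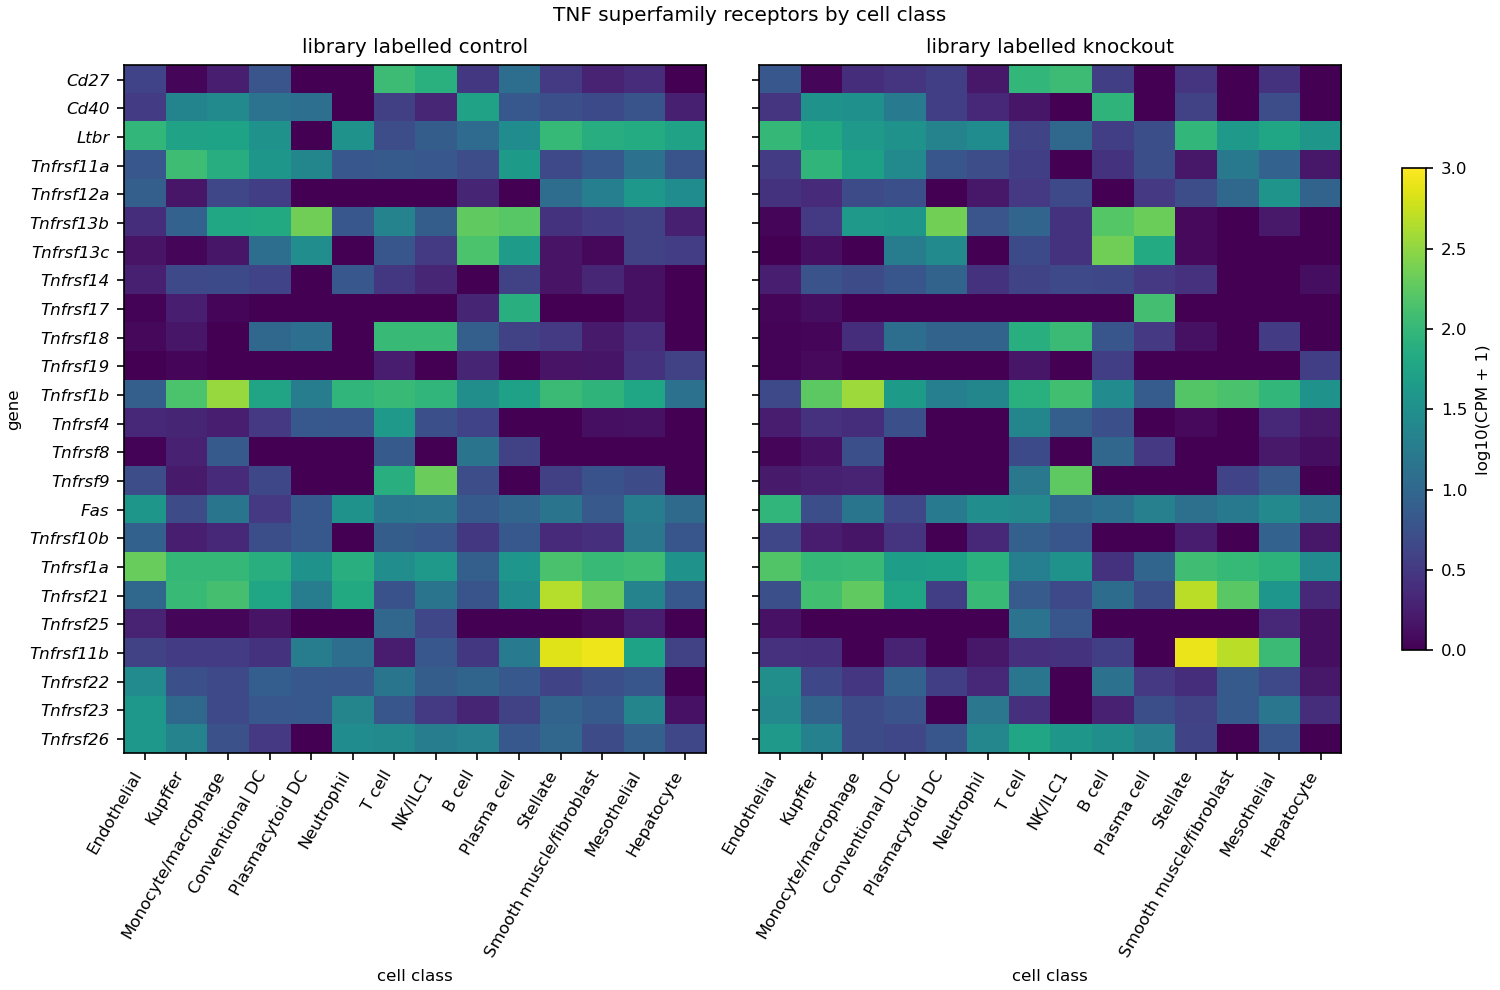
Level of the 24 receptors (rows, grouped as TRAF-binding, death-domain, decoy and unassigned from top to bottom) in 14 cell classes (columns) in the library labelled control (left) and knockout (right); the colour is log10(CPM + 1). Tnfrsf11b is brightest in stellate and smooth muscle or fibroblast-like cells, Tnfrsf21 in stellate cells, Tnfrsf1b in monocytes (339 and 360.2 CPM) and Tnfrsf17 in plasma cells.

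In endothelial cells, the cells targeted by the Cre, 2 ligands and 1 receptor were higher in the library labelled knockout. Tnfsf10 was at 111 CPM (105 to 117) against 233 CPM (227 to 238), a log2 ratio of knockout over control of 1.07 (0.99 to 1.15). Fas was at 37.8 CPM (34.6 to 41.3) against 93.7 CPM (90.2 to 97.4), a log2 ratio of 1.31 (1.17 to 1.45). Tnfsf12 was at 103 against 173 CPM, a log2 ratio of 0.76 (0.67 to 0.84). The decoy Tnfrsf23 was lower, at 38.7 against 24.9 CPM (log2 ratio -0.64), and came under 1.5-fold in 4 of 15 alternatives, among them scaling by trimmed means (-0.51), which moved every endothelial ratio by 0.12.

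Of 8 members measured in endothelial cells, 3 were at least 1.5-fold higher and 1 was lower. Over all genes measured there, 5.23% were that much higher and 10.3% lower. The median log2 ratio was 0.09 for the members and -0.03 for all genes. Ltbr (96.7 and 99.7 CPM), Tnfrsf22 and Tnfrsf26 were at log2 ratios of 0.13 or less. Tnfrsf1a was 1.5-fold apart under no setting, with a log2 ratio of -0.39 (-0.46 to -0.32).

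Since different clusters made up the endothelial class in the libraries, the ratios were also taken within the 6 clusters with at least 20 cells in each. This left out cluster 19, which had 16 control cells and 1394 knockout cells, 40% of the knockout endothelial cells. Tnfsf10 was higher in the library labelled knockout in all 6, with log2 ratios of 1.02 in cluster 0, 1.24 in cluster 4 (Fbln2, Wnt9b, Selp), 0.76 in cluster 28, 0.85 in cluster 29 (Gja5, Igfbp5, Jag1), 1.35 in cluster 31 and 0.17 (-0.20 to 0.56) in cluster 26. Tnfsf12 was higher in all 6, from 0.27 (-0.08 to 0.64) in cluster 28 to 1.14 in cluster 31. Fas was at 1.25, 1.30 and 1.29 in clusters 0, 4 and 31, at 0.68 in cluster 26, at 0.36 (-0.13 to 0.90) in cluster 28 and at -0.02 (-0.81 to 0.76) in cluster 29.

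Tnfrsf1a was lower in all 6 clusters, from -0.33 (-0.75 to 0.10) in cluster 26 to -0.60 (-0.88 to -0.31) in cluster 28, and its interval also reached equality in cluster 29. Tnfrsf23 was at 0.01 in cluster 0 and -1.33 in cluster 31. With the 6 clusters given the same weights in both libraries, a setting added after the clusters had been seen, the log2 ratios were 0.87 for Tnfsf10, 0.66 for Tnfsf12, 0.71 for Fas and -0.57 for Tnfrsf23. Fas moved by more than 1.5-fold under this setting and kept its direction. The setting also left out cluster 19, which held 40% of the knockout endothelial cells. The part of the weights and the part of the missing cluster in this move were not tested.

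Endothelial cells also differed in RNA of other cells. The hepatocyte list summed to 634 and 159 CPM, the erythroid list to 597 and 115 and the monocyte list to 291 and 121, each list with all of its markers detected. Hepatocytes held Tnfsf10 at 7.84 and 6.39 CPM, Fas at 9.90 and 14.2 CPM and Tnfsf12 at 57.4 and 31.9 CPM. Monocytes or monocyte-derived macrophages held Tnfsf12 at 73.4 and 119 CPM. The part of these lists in the ratios was not tested.

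**Figure D3:**
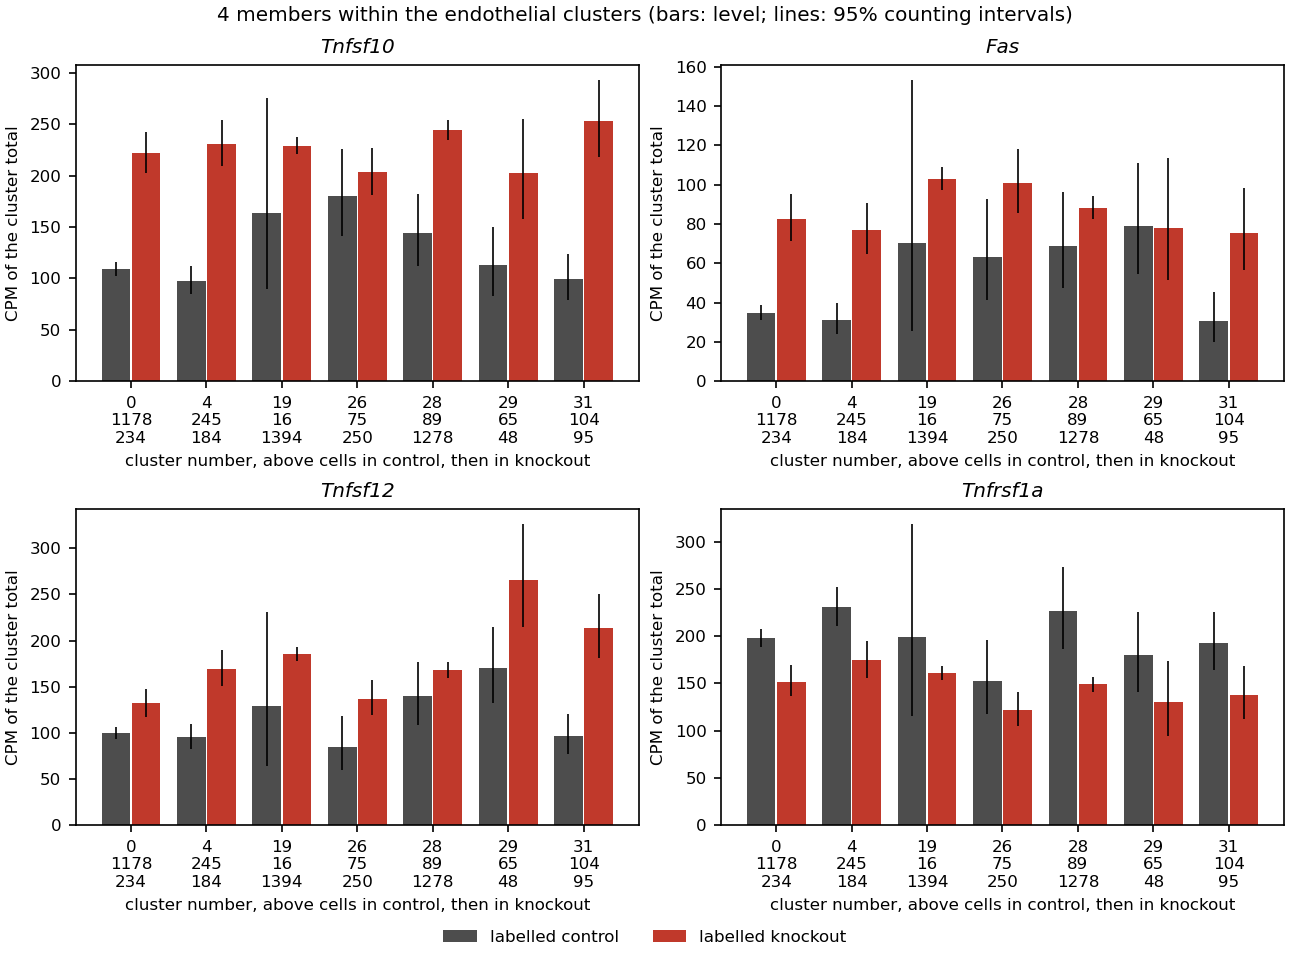
CPM of Tnfsf10, Fas, Tnfsf12 and Tnfrsf1a (y axes) in each endothelial cluster (x axes, with the cells of each library) in the libraries labelled control (grey) and knockout (red); lines are 95% counting intervals. The knockout bar is higher for Tnfsf10 and Tnfsf12 and lower for Tnfrsf1a in all 7 clusters, and the Fas bars are level in cluster 29; cluster 19 has 16 cells in the library labelled control.

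The 250 bases before the start sites of Tnfsf10 and Fas are shown because these members had the highest ratios in endothelial cells. They come from RefSeq annotation of GRCm38.p6, on the plus strand, at chr3:27316827-27317076 for Tnfsf10 and chr19:34290409-34290658 for Fas. Capitals mark matches, on either strand, to 7 motifs searched: the STAT site TTCNNNGAA, the interferon response element as GAAA and again GAAA with 2 bases between, an NF-kB form as GGG and TTTCC with 2 bases between, the AP-1 site TGANTCA, the CRE TGACGTCA, the TEAD site GGAATG and the GC box GGGCGG.
Tnfsf10: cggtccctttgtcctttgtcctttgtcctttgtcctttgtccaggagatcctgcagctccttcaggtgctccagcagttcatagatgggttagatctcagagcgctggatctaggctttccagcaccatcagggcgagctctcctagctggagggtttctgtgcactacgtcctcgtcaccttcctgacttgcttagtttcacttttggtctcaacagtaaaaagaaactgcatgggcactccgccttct
Fas: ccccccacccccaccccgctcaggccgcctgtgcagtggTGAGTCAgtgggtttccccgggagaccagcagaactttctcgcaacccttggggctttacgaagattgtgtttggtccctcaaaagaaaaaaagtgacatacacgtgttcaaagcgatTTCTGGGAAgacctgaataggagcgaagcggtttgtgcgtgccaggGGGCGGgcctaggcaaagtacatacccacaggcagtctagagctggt

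The Fas window held a TGANTCA match 211 to 205 bases before the start, a TTCNNNGAA match at 93 to 85 bases and a GGGCGG match at 47 to 42 bases. None of the 7 sets of letters was found in the Tnfsf10 window. Over 27025 promoter windows of this length, TTCNNNGAA was found in 7.18%, the interferon response element in 3.04%, the NF-kB form in 1.40%, TGANTCA in 6.87%, TGACGTCA in 1.62%, GGAATG in 12.6% and GGGCGG in 32.9%. Of the 40 members, 30 had a window in that annotation, of which 6 held TTCNNNGAA, 3 the interferon response element, 2 the NF-kB form, 4 TGANTCA, 0 TGACGTCA, 5 GGAATG and 13 GGGCGG. A match describes letters in the window and does not show that a factor binds there.

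In Kupffer cells (643 and 1266 cells), 10 members were measured, 1 was higher and 0 were lower by 1.5-fold, beside 3.90% higher and 4.39% lower over all genes. The member was Cd40, at 21.3 CPM (18.1 to 24.7) against 34.2 CPM (31.8 to 36.8), a log2 ratio of 0.69 (0.44 to 0.94). It came to 0.49 at its lowest and was under 1.5-fold with a stricter cell filter and with coarser or finer clusters. Tnfrsf11a was at 116 and 91.3 CPM (log2 ratio -0.35) and Tnfrsf1b at 139 and 173 (0.32). Neutrophil markers summed to 119 and 214 CPM in this class, and Mmp9, a neutrophil gene, was at 1.41 and 52.3 CPM; their part in the Kupffer values was not tested.

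In stellate cells (218 and 533 cells), 10 members were measured, 1 was higher and 1 lower, beside 6.03% and 11.7% over all genes. Tnfsf13b was at 16.5 CPM (11.6 to 22.7) against 28.2 CPM (23.9 to 33.0), a log2 ratio of 0.78 (0.25 to 1.34). Tnfrsf12a was at 10.7 CPM on 24 counts against 4.06 on 22 counts, a log2 ratio of -1.40 (-2.30 to -0.50). Tnfrsf12a was lower by at least 1.5-fold in all 14 alternatives, whereas Tnfsf13b was under 1.5-fold in 3 of 15 and came down to 0.11. The class excludes a contractile cluster (Acta2, Tagln) with 456 cells under the control label and 20 under the knockout label. With that cluster pooled, 5 members were 1.5-fold apart, a count without the share over all genes under that setting. In stellate cells the neutrophil list, of the class that led for Tnfsf13b, summed to 32.5 and 132 CPM, the erythroid list to 1087 and 61.6, the hepatocyte list to 509 and 225 and the cycling list to 105 and 15.9. Their part in the stellate ratios was not tested.

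In monocytes or monocyte-derived macrophages (1103 and 193 cells), 11 members were measured, 1 was higher and 1 lower, beside 6.68% and 6.45% over all genes. Tnfsf12 was at 73.4 and 119 CPM (log2 ratio 0.70) and Tnfrsf13b at 60.7 and 40 (-0.60). Neither kept its direction in all 14 alternatives, and both were under 1.5-fold in 10 of them: Tnfsf12 was at -0.44 with each library clustered on its own, and Tnfrsf13b at 0.11 with cells gated on markers one by one. Conventional dendritic cells had 13 measured members, 2 higher and 4 lower, beside 10.6% and 9.30%. Of these, Tnfrsf1a (77.7 and 47.1 CPM, log2 ratio -0.72) and Tnfrsf13b (65.2 and 37.4 CPM, -0.80) had intervals that left out equality, but both fell short of 1.5-fold in 3 alternatives. This class pooled cluster 9 (Cd209a, Mgl2; 185 and 84 cells) and cluster 11 (Xcr1, Clec9a; 83 and 87 cells). Its monocyte list summed to 4898 and 2639 CPM, with all 10 markers detected in both libraries, and its cycling list to 415 and 925 CPM. The part of this mix and of these lists in the ratios was not tested.

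**Figure D4:**
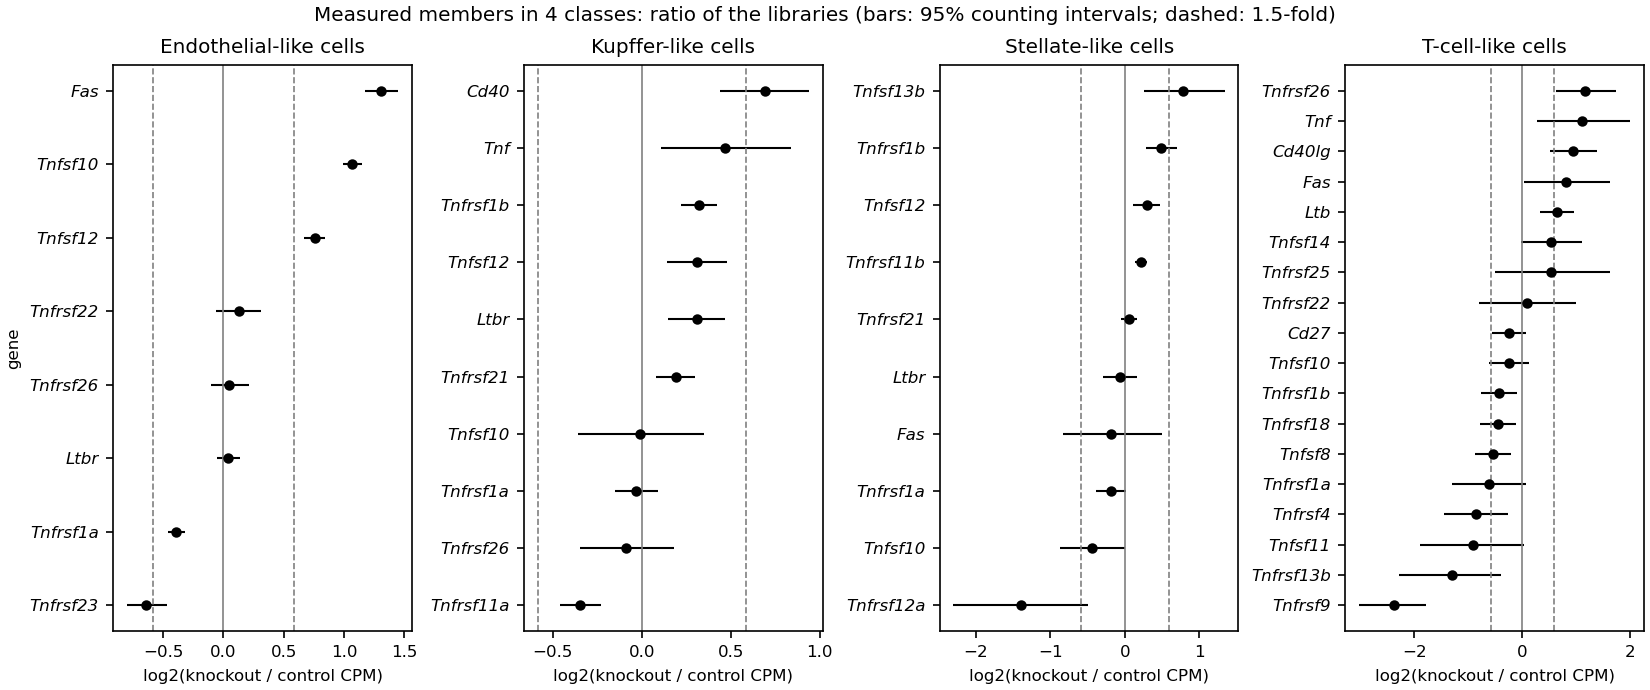
Log2 ratio of CPM, knockout over control (x axes), of every measured member (rows) in endothelial, Kupffer, stellate and T cells; bars are 95% counting intervals and dashed lines mark 1.5-fold. Fas, Tnfsf10 and Tnfsf12 lie beyond the upper line in endothelial cells, and Tnfrsf9 lies lowest in T cells at -2.38.

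T cells (249 and 329) held the most measured members, 18, of which 5 were higher and 5 lower by 1.5-fold or more, beside 11.3% and 12.3% over all genes. The higher ones were ligands in the main: Cd40lg (42.6 and 81.8 CPM, log2 ratio 0.94), Tnf (11.5 and 24.8 CPM, 1.11) and Ltb (84.4 and 131 CPM, 0.64), together with the receptors Fas (14.2 and 24.8 CPM, 0.81) and Tnfrsf26 (26.3 and 59.1 CPM, 1.17). In the weakest alternative Cd40lg came to 0.39 and Tnf to 0.50, and Fas was at 0.56. The lower ones included the costimulatory receptors Tnfrsf9 and Tnfrsf4. Tnfrsf9 was at 77.0 CPM (63.5 to 92.5) against 14.8 CPM (9.81 to 21.3), a log2 ratio of -2.38 (-3.03 to -1.78), and lay between -2.76 and -1.99 in 14 alternatives. Tnfrsf4 was at 41.2 against 22.7 CPM, a log2 ratio of -0.86, which came to -0.15 in the weakest alternative. Tnfrsf13b was at 20.9 against 8.44 CPM (-1.31), Tnfsf11 at 16.9 against 8.97 (-0.91) and Tnfrsf1a at 28.4 against 18.5 (-0.62), the last 2 with intervals that reached equality.

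Regulatory T cells carry much 4-1BB, OX40 and GITR, and 26 of 249 T cells (10.4%) under the control label and 14 of 329 (4.26%) under the knockout label had a Foxp3 count. Within gates, Tnfrsf9 was given separately. In cells with Cd4 and no Cd8 counts it was at 181 CPM (141 to 228) against 20.6 CPM (10.6 to 35.9), in cells with Foxp3 at 344 CPM (266 to 438) against 111 CPM (53.0 to 203), and in cells with Cd8 and no Cd4 counts at 34.3 CPM (20.3 to 54.2) against 7.60 CPM (2.47 to 17.7). The Foxp3 gate overlaps the Cd4 gate. Intervals did not overlap in these 3 gates, whereas in cells with neither gene they did (30.1 and 17 CPM).

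Tnfrsf4 differed between gates: 141 against 53.1 CPM in Cd4 cells but 167 against 243 CPM in Foxp3 cells, where the intervals overlapped. Cd40lg was higher in Cd4 cells (52.7 against 127 CPM) and in cells with neither gene (77.3 against 114 CPM, with overlapping intervals). Tnfsf8 was lower in Cd8 cells (183 against 109 CPM) and in cells with neither gene (92.3 against 38.7 CPM), without overlap of intervals. In Cd4 cells Tnfsf8 was at 52.7 against 84.0 CPM, with overlapping intervals. The summed level of 6 cycling genes in T cells was 1768 and 1007 CPM and that of the monocyte list was 2281 and 1194, led by Ly6c2, which T cells can express. The part of either in the ratios was not tested.

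**Figure D5:**
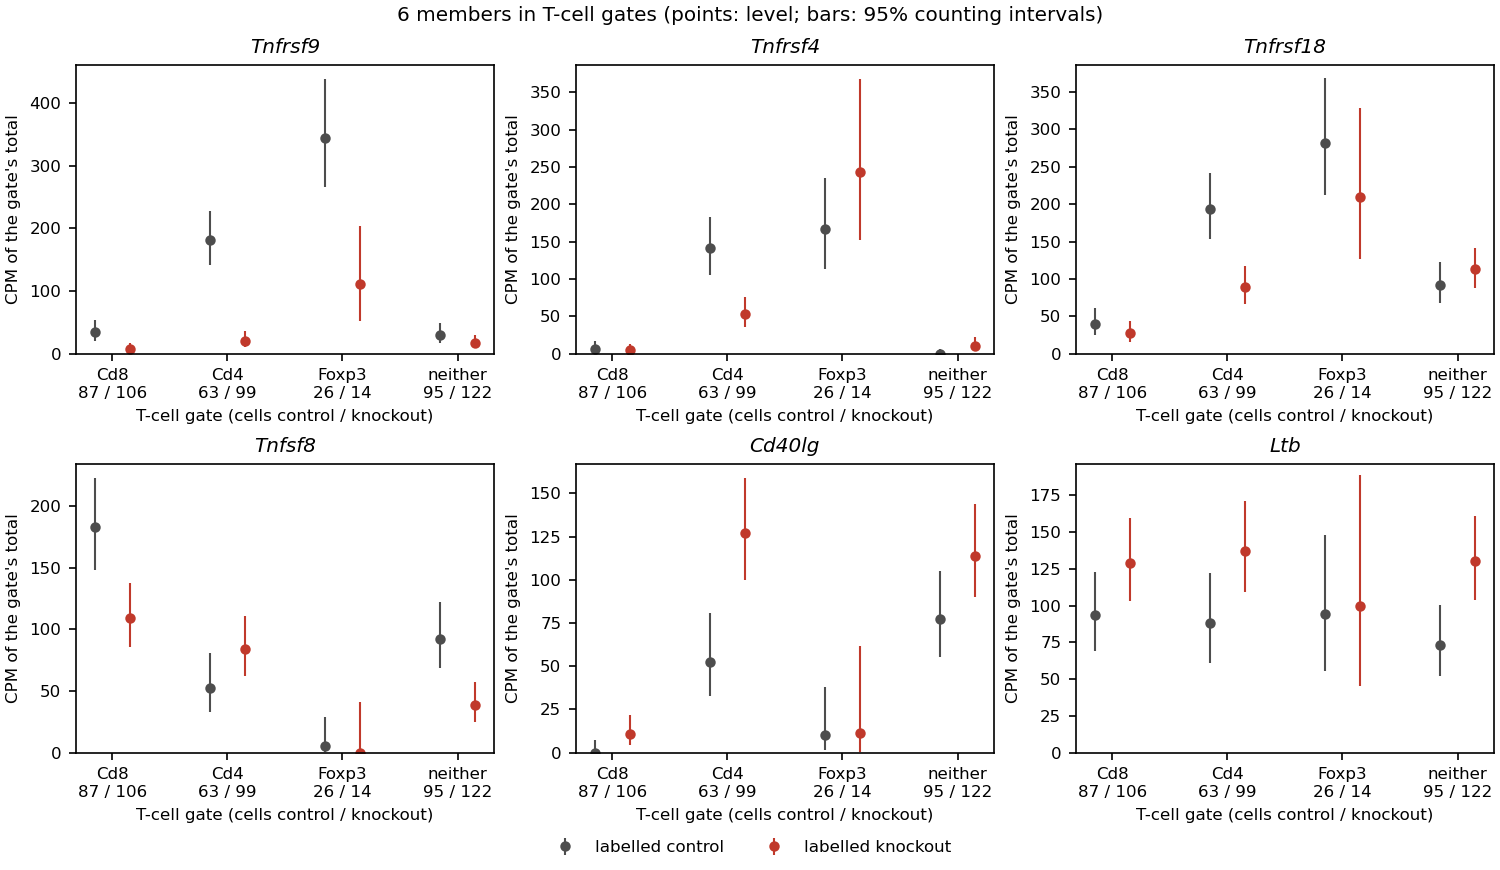
CPM of Tnfrsf9, Tnfrsf4, Tnfrsf18, Tnfsf8, Cd40lg and Ltb (y axes) in T cells gated on Cd8, Cd4, Foxp3 or neither Cd4 nor Cd8 (x axes, with the cells of each library) in the libraries labelled control (grey) and knockout (red); bars are 95% counting intervals. Tnfrsf9 is lower in the library labelled knockout in the Cd8, Cd4 and Foxp3 gates without overlap, and Cd40lg is higher in the Cd4 gate.

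NK cells or ILC1 (149 and 91) had 11 measured members, 1 higher and 0 lower, beside 15.4% and 13.1% over all genes. The member was Tnfrsf26, on 16 and 21 counts (17.6 and 37.5 CPM), and its interval reached equality without the cell holding most counts in each library. Tnfrsf9 was at 207 and 178 CPM there (log2 ratio -0.21), unlike in T cells, although the difference between the 2 classes was not tested. B cells (200 and 246) had 9 measured members, 4 higher and 1 lower, beside 14.4% and 13.7%. Tnfrsf13c was at 140.4 CPM (118 to 166) against 220.2 CPM (194 to 249), a log2 ratio of 0.65 that came to 0.41 with cells thinned to 1 depth, Cd40 at 51.9 against 89.0 CPM (0.78), and Lta at 7.12 against 17.6 CPM on 7 and 20 counts (1.31), whose interval reached equality without the cell holding most counts in each library. Erythroid genes summed to 10039 and 1835 CPM in B cells, and their part in these ratios was not tested.

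Pathway genes around the receptors were counted from lists of adaptors, NF-kB genes, TNF-responsive genes and shedding enzymes. In endothelial cells, with 5.23% of genes higher and 10.3% lower, 0 of 20 measured adaptors were higher and 2 lower (Traf5 at -0.65 and Ripk3 at -0.73), and of 17 NF-kB genes only Bcl3 was apart, at 30.2 against 9.83 CPM. Of 14 TNF-responsive genes 2 were higher and 5 lower. Tnfaip2, induced by TNF in endothelium, was at 30.6 against 6.18 CPM (log2 ratio -2.31), Ccl2, a monocyte chemokine, at 33.9 against 7.55 (-2.17) and Sele (E-selectin) at 12.3 against 2.74 (-2.16). With clusters weighted alike Sele came to 0.07, Tnfaip8 to 0.25 and Ccl2 to -0.86. Under that setting Traf5 (-0.43), Ripk3 (-0.30) and Vcam1 (-0.26, from -0.66) were also under 1.5-fold, so that neither adaptor remained called. The higher ones were Ier3 (24.0 against 93.5 CPM, 1.96) and Junb (204 against 331 CPM, 0.70), early-response genes. All 8 measured shedding enzymes and inhibitors were within 1.5-fold.

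In Kupffer cells more genes of these lists were higher than lower, beside 3.90% higher and 4.39% lower over all genes. Of 15 TNF-responsive genes 6 were higher and 2 lower. Their median log2 ratio was 0.53, beside 0.02 for all genes. Tnfaip3 (A20), an inhibitor of NF-kB signals, was at 54.3 against 120.2 CPM (1.15), Nfkbia at 506 against 810.3 CPM (0.68), Cxcl10 at 25 against 106 CPM (2.09) and Junb at 232 against 468 CPM (1.02). The other 2 were Ier3 (12.3 against 27.2 CPM) and Mmp9, which is itself a marker in the neutrophil list given above (119 and 214 CPM). The lower ones were Vcam1 (1946 against 1018 CPM) and Csf1 (12 against 4.91). Of 16 NF-kB genes 4 were higher, Nfkbiz, Relb, Nfkbie and Nfkbia, the last of which is also counted among the 6, and 0 were lower. Cxcl10 came to -0.01 with each library clustered on its own, while Tnfaip3, Nfkbia, Relb, Nfkbie and Nfkbiz were higher by 1.5-fold in all 15 alternatives.

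Fasl, the ligand of FAS, lies outside the symbol rule and was in the pathway lists. It was higher in the library labelled knockout in T cells (58.1 against 128 CPM, log2 ratio 1.14, interval 0.78 to 1.51) and in NK cells or ILC1 (105 against 248 CPM, 1.25, interval 0.86 to 1.64), and stayed at least 0.80 in all 14 alternatives of each. Fas, its receptor, was higher in endothelial cells of the same library. In NK cells or ILC1 the cycling list summed to 1997 and 887 CPM and the sinusoidal endothelial list to 683 and 1727. Gzma, a marker of that class, was at 4009 and 1749 CPM there. The part of these differences in the NK or ILC1 ratios was not tested.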

How the data were processed

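The deposited matrices hold raw counts per gene and barcode from BD Rhapsody whole transcriptome libraries of liver cells, 1 per label, and the authors used build GRCm39 (per the submitters' processing notes). How reads were aligned and counted, whether strand or molecular identifiers were used and how cells were called is not given in the sources used here. Barcodes were kept from 300 genes and 500 counts upward when no more than 25% of counts were mitochondrial. The automatic doublet threshold marked 0% and 0.0112% of barcodes and so did not work, and the highest 5% of doublet scores were removed instead. Cells of both libraries were clustered together (scanpy 1.11.5, leidenalg 0.10.2, 2000 variable genes, 30 components, resolution 1.0) without the members, the pathway genes and Ccn2. Clusters were named from marker lists, with score thresholds set after the clusters had been seen. Counts were summed per class and library and scaled to the class total, and intervals came from scipy 1.17.1 (exact Poisson for a level, exact conditional binomial for a ratio). Scripts were checked on data with known answers. The members and lists were chosen with earlier results of these data known. Every member was accounted for. Values were named for the leading class of each member and for members 1.5-fold apart whose interval left out equality in 8 classes. Alternatives covered cell filters, doublets, clustering, gating, scaling, thinning and level minimums. RefSeq promoter windows come from another build, GRCm38.p6, and no count was placed on them.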

Additional observations from a re-analysis of the deposited data

Results flagged for a closer look

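For 4 members the log2 ratio of knockout over control pointed one way in some classes and the other way in others, beyond 1.5-fold and with intervals that left out equality. These differences between classes were not tested. Tnf was at 1.11 in T cells and -2.23 in neutrophils, where 25 of 34 counts of the library labelled control came from 1 cell and the ratio without the cell holding most counts in each library was -0.40 (-1.41 to 0.80). Tnfrsf11b was at 1.05 in mesothelial cells and -0.77 in smooth muscle or fibroblast-like cells, of which the library labelled knockout had 20. The mesothelial value came to 0.41 at clustering resolution 1.6. The stellate list summed to 3137 and 5221 CPM in mesothelial cells, of which Dcn alone held 2131 and 3828. Stellate cells held Tnfrsf11b at 712 and 825 CPM. The part of the stellate list in the mesothelial ratio was not tested. Tnfrsf1b was at 0.60 in smooth muscle or fibroblast-like cells, 0.70 in mesothelial cells and 1.46 in hepatocytes, and at -2.05 in neutrophils and -2.97 in plasma cells. Without the cell holding most counts in each library it came to -0.95 (-2.14 to 0.47) in neutrophils and 0.45 (-0.08 to 0.94) in smooth muscle or fibroblast-like cells, both with intervals that included equality. The smooth muscle value was also under 1.5-fold in 6 of 9 alternatives, and the hepatocyte value was -0.34 with a marker gate. In plasma cells Tnfrsf1b had 18 counts in 7 cells against 3 in 3 cells. The monocyte list summed to 1703 and 3991 CPM in mesothelial cells and 2978 and 899 in plasma cells. Single genes led these sums, Fn1 at 894 and 2217 CPM in mesothelial cells and Ly6c2 at 1763 and 618 in plasma cells. The monocyte list summed to 1444 and 1599 CPM in smooth muscle or fibroblast-like cells, 342 and 412 in hepatocytes and 19473 and 23591 in neutrophils. The part of this list in the Tnfrsf1b ratios was not tested. Tnfsf12 was at 0.76 in endothelial cells, 0.70 in monocytes, 0.60 in mesothelial cells and -0.84 in hepatocytes, where scaling by trimmed means moved every ratio by 0.67. The hepatocyte value was under 1.5-fold in 6 of 14 alternatives and came to -0.04 in the weakest. The monocyte value was under 1.5-fold in 10 of 14, with 2 reversed, and the mesothelial value in 3 of 14. In endothelial cells this held for 0 of 15.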

How the results depend on the processing

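No paired analysis was possible because each label had 1 library. The number of members 1.5-fold apart depended on the class bounds and minimums, and the cause was not tested. The minimums also set which members count as measured. Shares over all genes are given here for the main setting only. The counts below thus describe the settings and are not results about the members. In endothelial cells it was 4, and 17 with no minimum CPM. In Kupffer cells it was 1. It became 0 with a stricter cell filter, resolution 0.6, resolution 1.6 or at least 50 CPM, 2 with a looser filter, thinned cells or cluster 13 pooled, 4 with a marker gate, 6 with each library clustered on its own and 9 with no minimum CPM. In stellate cells it was 2. It became 5 with a stricter filter, resolution 0.6, members left among the variable genes, a marker gate, no minimum CPM or the contractile cluster pooled, 4 with a looser filter, 1 with doublets kept, thinned cells or the mean of per-cell CPM, and 0 with at least 50 CPM. In monocytes it was 2. It became 5 with a stricter filter, doublets kept or no minimum CPM, 4 with a looser filter, resolution 1.6 or members left among the variable genes, and 1 with libraries clustered on their own, thinned cells or the mean of per-cell CPM. In T cells it was 10, and 4 with at least 50 CPM.

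Of 325 alternative values of 23 named member and class pairs, 3 changed sign: Tnfsf12 in monocytes was at -0.44 with libraries clustered on their own and -0.24 with a marker gate, and Tnfrsf13b in monocytes at 0.11 with the gate. Among 567 values of 40 other pairs 5 did: Tnfrsf11a (0.02) and Cxcl10 (-0.01) in Kupffer cells with libraries clustered on their own, Tnfrsf1b in hepatocytes (-0.34) with the gate, and Tnfaip8 (0.25) and Sele (0.07) in endothelial cells with clusters weighted alike. The pooled-class, weighted-cluster and left-out-cell settings were chosen after seeing the data. With few counts in neutrophils and plasma cells of the library labelled control, small differences there were not detectable.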
